A study of Mus musculus with 10 samples.

Results

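Interferon regulatory factors (IRFs) are transcription factors that share a DNA-binding domain recognising GAAA-type elements, and they control the genes of type I interferon and of the interferon response. IRF3 and IRF7 are held inactive until a pathogen sensor signals, whereas IRF4 and IRF8 act mainly in blood cell development. In fibroblasts the best known members are those of the antiviral response. The genes Irf1, Irf2, Irf3, Irf4, Irf5, Irf7, Irf8 and Irf9 form the family described here, and every region that the deposited tables assign to 1 of these 8 genes was a member. That gave 102 of the 340994 regions listed in 5 tables, in which 22473 genes have at least 1 region.

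The regions come from CUT&Tag. A transposase tethered to an antibody cuts DNA where that antibody is bound, so that reads mark histone lactylation or a bound factor and not RNA. Mouse primary cardiac fibroblasts were profiled as a control (labelled NC), after TGF-β treatment, and after TGF-β treatment of cells transfected with siRNA against Hk1. Hk1 is the gene of hexokinase 1, which catalyses the first step of glycolysis. The antibodies were against lactylation of histone H3 lysine 9 (H3K9lc), c-JUN, SMAD3 and NFATC2. NC cells were profiled for H3K9lc only, and a further library titled TGF names no antibody. The strains of the study are given as C57BL/6 J, without a statement on the fibroblasts of these libraries. Age, genotype and the number of animals behind the cells were not given in the sources used here. Nor was the treatment of the NC cells, or whether they or the TGF-β cells without HK1 knockdown received a control siRNA. The H3K9lc antibody of the NC library rests on its description, and the siHK1 label of the knockdown library for H3K9lc on the table that names it, since its title says SI.

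There was 1 library for each condition and antibody, 10 in all, so no difference between conditions could be tested and no p-value was computed. Intervals given below are exact, cover 95% and describe counting error only. A ratio between libraries was taken after setting their totals over the listed regions equal, with a pseudocount of 0.5, and is given as log2 of the second library over the first. Equal totals remove any change shared by all regions, so a genome-wide gain or loss cannot be told apart from library depth. The study reports that H3K9lc rose across the genome with TGF-β and fell with HK1 knockdown, which these ratios cannot show. Its methods name a DNA spike-in, which was not used here. Reads over the listed regions ranged from 115572 in the NC library to 4215447 in the c-JUN library of TGF-β cells, and the HK1 knockdown library was the shallower of each pair (1419023 against 2490853 reads for H3K9lc, 2271336 against 4215447 for c-JUN, 399897 against 563562 for SMAD3 and 354599 against 575706 for NFATC2). In the c-JUN libraries, promoter regions were listed for 5 of 5 fibroblast marker genes (518 reads in TGF-β cells, from 23 at Dcn to 235 at Col1a2), 2 of 5 macrophage genes (Csf1r with 204 reads and Cd68 with 66), 3 of 3 endothelial genes (118 reads in all) and 1 of 3 cardiomyocyte genes (Myh6 with 84 reads). No promoter region was listed for the macrophage genes Ptprc, Adgre1 and Spi1. CUT&Tag gives occupancy and no RNA, so neither cell identity nor the loss of Hk1 RNA could be read from these libraries.

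The family was chosen by the H3K9lc read counts of Irf7, which encodes the factor that amplifies type I interferon production. The H3K9lc region of Irf7 spans chr7:141263456-141264145 (GRCm38, 690 bases, Irf7 being on the minus strand). The upstream part of this region, chr7:141263892-141264145, is shown on the minus strand because it holds the boundary between intron and exon, with the 157 bases of coding exon 7 in capitals and the 97 intronic bases in lower case. The downstream edge of the region is shown with 15 bases on either side (chr7:141263441-141263470, minus strand), with the last bases of coding exon 8, which lie inside the region, in capitals.
Irf7 H3K9lc region, upstream part: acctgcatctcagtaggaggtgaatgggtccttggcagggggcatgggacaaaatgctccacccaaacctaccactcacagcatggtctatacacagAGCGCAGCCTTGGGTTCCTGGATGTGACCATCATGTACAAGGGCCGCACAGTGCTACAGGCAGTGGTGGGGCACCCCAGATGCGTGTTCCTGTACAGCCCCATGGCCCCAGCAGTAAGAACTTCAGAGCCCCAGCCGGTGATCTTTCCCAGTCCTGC
Irf7 H3K9lc region, downstream edge: CTGATCCTGGTGAAGgtagagcctgggtgg

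The region had 3301 H3K9lc reads in the TGF-β library, 4 in the HK1 knockdown library and 1 in the NC library. The TGF-β library thus stood far above both others, whose exact intervals overlapped (1.09 to 10.2 reads in the knockdown library and 0.0253 to 5.57 in NC) although their totals differ. The log2 ratio of the knockdown library over the TGF-β library was -8.71 (interval -10.75 to -7.52), and that of the TGF-β library over NC was 6.78 (4.89 to 12.67). These values chose the gene and are given as a description. In these bulk libraries, fewer cells with the mark and less of it per cell cannot be told apart. Both ratios use the same TGF-β library.

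No other region read this deeply differed between the libraries by as much. By reads, Irf7 was number 50 of 74751 H3K9lc regions in the TGF-β library, with 0.133% (0.128 to 0.137) of all listed reads. The other 130 regions with at least 1000 reads had between 50.8% and 82.2% as many reads in the knockdown library as in the TGF-β library (median 63.2%), while Irf7 had 0.121%. In the table with NC the other 126 such regions had between 2.38% and 18.1% as many reads in NC (median 5.73%), while Irf7 had 0.0303%. Among all regions, the next most negative log2 ratio after Irf7 was -4.61 for the knockdown, and the next highest for TGF-β over NC was 3.97.

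**Figure D1:**
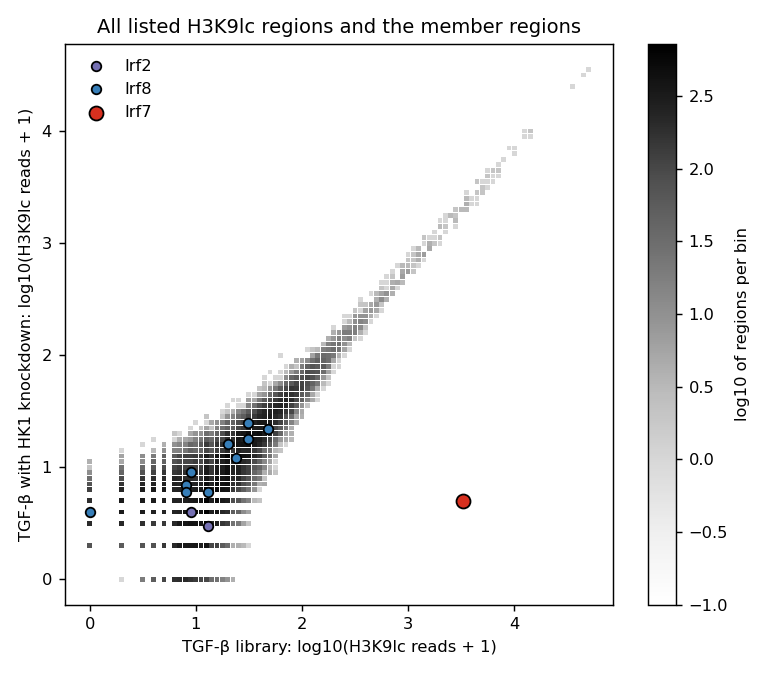
H3K9lc reads of all 74751 listed regions in the TGF-β library (horizontal axis) and the TGF-β library with HK1 knockdown (vertical axis), both as log10(reads + 1), with grey squares shaded by the number of regions per bin and the regions of Irf2, Irf7 and Irf8 as coloured points. The Irf7 region, with 3301 and 4 reads, lies far below the other regions with at least 1000 TGF-β reads, and the regions of Irf2 and Irf8 have 0 to 47 TGF-β reads.

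Of its relatives, only Irf2, which encodes a factor that competes with IRF1 for the same elements, and Irf8, which encodes a factor of myeloid cell development, had H3K9lc regions in the same table, and none of these 12 regions came near Irf7. Their TGF-β reads ranged from 0 to 47, so the deepest of them, an Irf8 region at chr8:120874423-120874974 with 47 reads against 21 in the knockdown library, had 70.2 times fewer reads than Irf7. Per kb, Irf7 had 4784 reads (4622 to 4950), the 10 Irf8 regions together 45.3 (39 to 52.4) and the 2 Irf2 regions 32.3 (19.7 to 49.8). The last 2 levels did not differ beyond their counting intervals. In the knockdown library Irf8 had 28.5 reads per kb (23.5 to 34.2), Irf2 8.06 (2.62 to 18.8) and Irf7 5.8 (1.58 to 14.8). There the interval of Irf8 lay above both others, and those of Irf2 and Irf7 overlapped.

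The relatives' summed reads differed by about as much as the library totals. The 12 regions summed to 203 reads in the TGF-β library and 120 in the knockdown library, and the summed log2 ratio was 0.14 (-0.21 to 0.49) for Irf8 and -1.09 (-2.96 to 0.27) for Irf2. At least 2-fold lower after HK1 knockdown were 2 of the 13 member regions, against 13.7% of all regions, and at least 2-fold higher was 1, against 13%. Without scaling, 6 were lower, against 44% of all regions, and 1 higher, against 4.94%. The second lower region was at Irf2 (chr8:46861366-46861724, 12 reads against 2) and the higher one at Irf8 (chr8:120826241-120826500, 0 against 3). With the added demand that the interval of the ratio excludes equality, Irf7 alone was called lower (3.33% of all regions) and no member higher (3.47%). The median log2 ratio was 0.01 over the 13 member regions, 0.19 without Irf7 and -0.08 over all regions. Where the region with a 0 was left out, having no more than 3 reads in the other library, it was -0.13.

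None of the 10 Irf8 regions in this table lay within Irf8 itself. 1 of them was 12607 bases upstream of the gene start, and the other 9 were 79059 to 161691 bases downstream, in introns of Gm20388, a gene model that runs across Irf8. Both Irf2 regions were 121634 and 146801 bases downstream of the Irf2 start, outside any gene. The assignment of these regions to the members is thus that of the deposited annotation and does not rest on overlap. Irf7 was the only member with an H3K9lc region overlapping the gene in this table.

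In the table with NC, 12 regions were assigned to members. The NC library had 0 to 3 reads at each of them, 12 in all, and 29851 of all 65853 regions had none. At least 2-fold lower in TGF-β over NC were 5 members, against 24.9% of all regions, and at least 2-fold higher was Irf7 alone, against 14.7%. Without scaling to equal totals, 1 was lower, against 2.47% of all regions, and 11 were higher, against 92.2%. With the interval excluding equality, 1 was lower (2.42% of all regions) and 1 higher (0.328%). The lower one was the only H3K9lc region of Irf5, whose product acts below Toll-like receptors, at chr6:29525110-29525450, with 2 reads in NC and 0 in TGF-β. The other lower ones were 2 Irf2 regions (1 read in NC against 4 and 12 in TGF-β) and 2 Irf8 regions (1 against 8 and 3 against 30), each with more raw reads in the TGF-β library. The median log2 ratio was -0.48 over members and -0.08 over all regions. With a count of 0 taken as 3 and the region with at most 3 reads otherwise left out, it was -1.0.

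**Figure D2:**
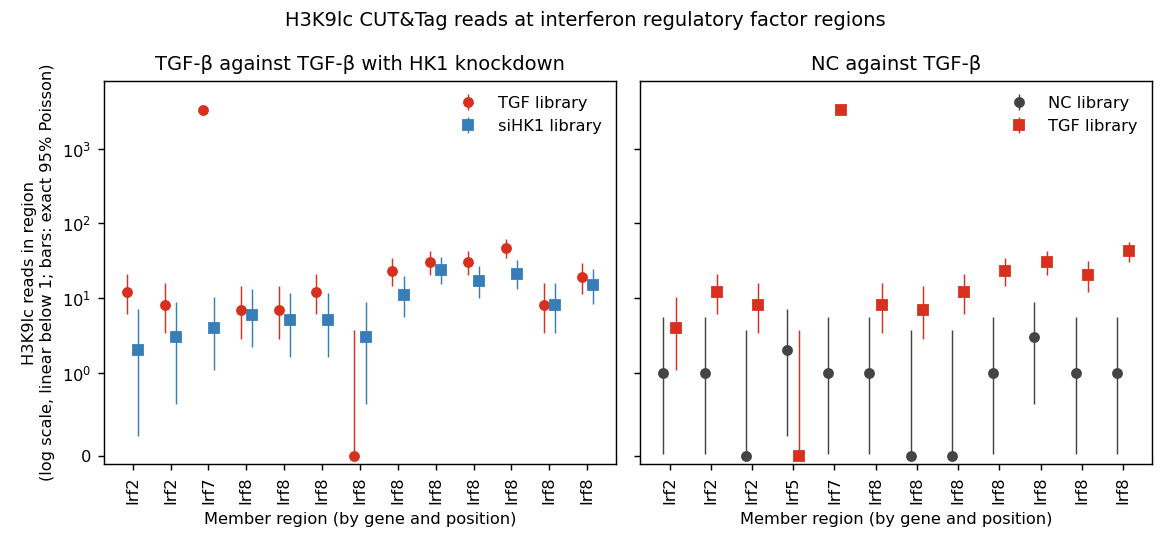
H3K9lc reads at every member region in the TGF-β and HK1 knockdown libraries (left, 13 regions) and in the NC and TGF-β libraries (right, 12 regions), on a log axis that is linear below 1, with exact 95% Poisson intervals as bars. Irf7 stands at 3301 reads in the TGF-β library and at 4 and 1 in the others, while no other member region exceeds 47 reads.

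The position of the Irf7 region within its gene was examined because the tables label it as a promoter. The label rests on a transcript with a retained intron (ENSMUST00000127223.7) that starts 986 bases upstream of the region, whereas the region begins 2336 bases downstream of the outermost annotated Irf7 start. It covers the whole of coding exons 7 (390 bases) and 8 (119 bases) of the 9 in ENSMUST00000026571.10, which are 509 of the 1371 coding bases, or 37.1%. Coding sequence made up 73.8% of the region. No H3K9lc region was listed over the other 7 coding exons, and none over the gene start.

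The downstream edge of the region fell exactly on the last base of coding exon 8, as the sequence of that edge shows. Only 11 of the 74751 H3K9lc regions (0.0147%) had an edge on the same base as the like-sided edge of an annotated coding exon, and none of the relatives' regions did. Of the other 10, 2 neighbouring regions on chromosome 9 had 3664 and 2209 reads in the TGF-β library, the knockdown library had 62.1% and 61.3% as many, and the median over the 10 in the TGF-β library was 22.5 reads. In other experiments of the study, such cells were transduced with an adenovirus carrying IRF7, listed among the reagents as the human gene, while a mouse Irf7 insert is listed for an adeno-associated virus. The labels of these libraries name no transduction, the table of the library without a named antibody also has columns headed GFP, and a contribution of Irf7 sequence from outside the chromosomal gene to the 3301 reads was not tested.

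**Figure D3:**
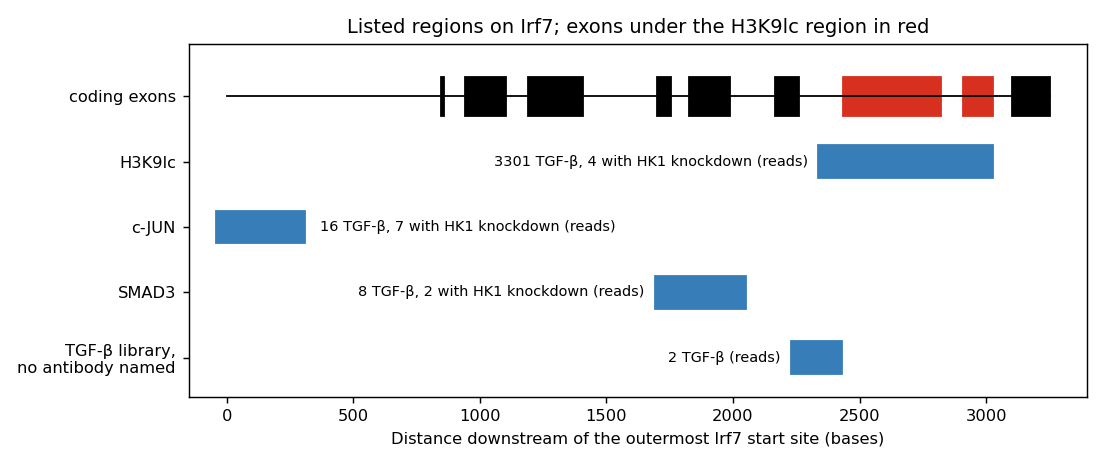
Map of Irf7 in bases downstream of its outermost annotated start, with the coding exons of ENSMUST00000026571.10 on top and the regions listed for H3K9lc, c-JUN, SMAD3 and the TGF-β library without a named antibody below, each with its reads. The H3K9lc region covers exons 7 and 8 (red) and ends at the edge of exon 8, the c-JUN region lies at the start, and the SMAD3 region lies between them.

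Regions of genes around Irf7 had H3K9lc reads near or below the median of all regions, which was 16 in the TGF-β library. Within 100 kb of its start, 3 other regions were listed in the knockdown table: Rnh1, a ribonuclease inhibitor gene, with 19 reads in TGF-β cells and 11 after knockdown, Mir210, a hypoxia-induced microRNA gene, with 15 and 4, and Drd4, a dopamine receptor gene, with 2 and 3. In the table with NC, the Rnh1 and Mir210 regions had 0 reads each in NC. The high H3K9lc level was therefore that of 1 region of 690 bases and was not shared by its neighbours.

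No other region had a similar pattern over the 3 H3K9lc libraries. Of 57567 regions listed in both tables, those with the largest smaller-of-both log2 ratios for TGF-β over knockdown and TGF-β over NC after Irf7 (6.78) were at Gm38404 (1.93), Tmem117 (1.87), Shoc2 (1.87), Habp2 (1.83) and Gm11487 (1.83). These had 35 to 43 reads in the TGF-β library, 4 to 6 after knockdown and 0 in NC, so their ratios over NC follow from the pseudocount.

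At the Irf7 start itself, c-JUN, the AP-1 subunit induced by growth factor and stress signals, had a region at chr7:141266174-141266521. It had 16 reads in TGF-β cells (9.15 to 26) and 7 with HK1 knockdown (2.81 to 14.4), and the log2 ratio was -0.25 (-1.82 to 1.06). The intervals overlap, and the value lay at the 37.9th percentile of all c-JUN regions. Without scaling, the counts of 16 and 7 were more than 2-fold apart. SMAD3, the factor phosphorylated by the TGF-β receptor, had a region within the gene at chr7:141264431-141264790, of which 222 of 360 bases are coding, with 8 and 2 reads and a log2 ratio of -1.27 (-4.78 to 0.82). No NFATC2 region was assigned to Irf7. The library without a named antibody had 2 reads at chr7:141264051-141264252.

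The sequence at the Irf7 start was searched for the letters of AP-1 and IRF elements. The 193 bases before its outermost annotated start are shown because the c-JUN region reaches into them (RefSeq promoter, GRCm38, chr7:141266482-141266674, minus strand), with the 40 bases inside the c-JUN region in capitals.
Irf7 promoter: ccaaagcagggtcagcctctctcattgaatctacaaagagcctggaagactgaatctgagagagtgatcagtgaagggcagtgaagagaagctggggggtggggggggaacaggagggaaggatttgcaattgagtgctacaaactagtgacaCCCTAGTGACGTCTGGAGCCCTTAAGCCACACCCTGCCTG
The full window of 250 bases before the RefSeq start held neither the AP-1 letters TGANTCA nor the core of the interferon-stimulated response element (ISRE; GAAA, any 2 bases, GAAA) on either strand. The first was present in the same window of 6.75% of 32851 RefSeq promoters and the second in 2.98%. All 8 genes had at least 1 promoter in that set, 11 in all. None of these held TGANTCA, and 1, at Irf2, held the ISRE core.

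c-JUN was the factor with the most reads across the family, and Irf7 was among its lowest members. The c-JUN library of TGF-β cells was also the deepest, with a median of 32 reads over all regions and 27 over members. Its table listed 33 member regions, and all 8 genes had at least 1. Per kb over all regions of a gene, TGF-β cells had 132 reads at Irf3 (106 to 163), 127 at Irf5 (106 to 150), 126 at Irf4 (114 to 139), 115 at Irf2 (107 to 124), 59.7 at Irf8 (51.9 to 68.3), 46 at Irf7 (26.3 to 74.7), 37.4 at Irf9 (15.1 to 77.1) and 20.5 at Irf1 (10.6 to 35.9). In that order, only Irf2 and Irf8 were neighbours whose counting intervals did not overlap. After HK1 knockdown the same 4 genes were highest, with Irf2 (74.3, interval 67.9 to 81.1) now above Irf4 (58.8, interval 51 to 67.5), and their intervals did not overlap.

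The deepest c-JUN regions of the family lay away from the gene starts. The deepest was 32639 bases downstream of the start of Irf4, a gene of lymphocyte differentiation, at chr13:30781865-30782697, with 199 reads in TGF-β cells and 126 after knockdown. The deepest of Irf2 was at chr8:46869444-46869902, 129712 bases downstream, with 152 and 84 reads, followed by an intronic one at chr8:46811219-46811980 with 146 and 100. The deepest of Irf8 was at chr8:120821573-120822399, 85215 bases downstream in an intron of Gm20388, with 110 and 58 reads. By reads in TGF-β cells these 4 lay at percentiles 95.6, 92.5, 92 and 87.1 of all c-JUN regions, and after equal library totals the intervals of their log2 ratios (0.23, 0.04, 0.35 and -0.03) included equality. Without scaling the ratios were -0.66, -0.85, -0.54 and -0.92.

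The AP-1 letters in these 3 genes' deepest regions are shown with TGANTCA in capitals, as 121 bases on the plus strand of GRCm38, because they lie in the regions with the most c-JUN reads of each gene. Each is centred on the match nearest to the middle of its region, and where the reads fall within a region is not given. The positions are chr13:30782082-30782202, chr8:46869557-46869677 and chr8:120821983-120822103.
Irf4 c-JUN region: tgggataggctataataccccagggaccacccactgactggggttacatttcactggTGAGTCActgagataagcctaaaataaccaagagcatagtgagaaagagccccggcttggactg
Irf2 c-JUN region: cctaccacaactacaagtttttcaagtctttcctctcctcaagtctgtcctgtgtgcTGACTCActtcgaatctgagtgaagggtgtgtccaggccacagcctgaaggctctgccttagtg
Irf8 c-JUN region: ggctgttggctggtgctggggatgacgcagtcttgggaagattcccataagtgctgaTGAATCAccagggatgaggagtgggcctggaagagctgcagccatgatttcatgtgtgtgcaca
The match shown for Irf4 lies outside the central 200 bases of its region, to which the following counts refer. In that window, TGANTCA was present in 10 of the 33 member regions (30.3%), beside 29.2% of all c-JUN regions. It was less common in all regions of the H3K9lc (6.25%), SMAD3 (6.69%) and NFATC2 (6.59%) tables, where 1 of 13, 1 of 22 and 2 of 22 member regions held it. The ISRE core was present in no member region of the c-JUN, SMAD3 and H3K9lc tables and in 1 of 22 in the NFATC2 table, at Irf2, beside 1.5% to 2.1% of all regions in these tables.

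Most c-JUN regions of the members stayed within 2-fold after HK1 knockdown. At least 2-fold lower were 4 of the 33 regions, against 11.4% of all regions, and at least 2-fold higher were 5, against 7.44%. Without scaling, 12 were lower, against 45.9% of all regions, and 3 higher, against 2%. With the interval excluding equality, 1 was lower (5.56% of all regions) and 3 were higher (4% of all regions). The lower one lay 38597 bases downstream of the Irf4 start in an exon of the non-coding gene Gm29675 (chr13:30787823-30788242), with 71 reads against 18 and a log2 ratio of -1.06 (-1.92 to -0.33). The region beside it (chr13:30786367-30787001) had 70 against 24 reads, with -0.63 (-1.39 to 0.03).

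The 3 higher c-JUN regions had few reads. At the start of Irf1, which encodes the activator first found on the interferon-β promoter, 12 reads in TGF-β cells stood against 16 after knockdown (chr11:53769854-53770437), with a log2 ratio of 1.29 (0.14 to 2.52). An Irf2 intron (chr8:46769650-46769882) had 1 against 6, and a region in Irf8 (chr8:120751943-120752462) had 5 against 13. At Irf1 the raw counts themselves had overlapping intervals (6.2 to 21 and 9.15 to 26), so that the call rests on the unequal library totals.

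Of the other c-JUN regions at promoters, those of Irf4 and Irf9 were at least 2-fold lower, with intervals that include equality. At the Irf4 start (chr13:30749150-30749369) 12 reads stood against 2, with a log2 ratio of -1.43 (-4.89 to 0.47). Irf9, which encodes a DNA-binding factor of the type I interferon response, had 7 and 0, where a count of 0 allows up to 3 reads. The regions of Irf3 and Irf5 stayed within 2-fold after equal totals. Irf3, which encodes the constitutive factor that starts interferon-β transcription, had 87 and 61 c-JUN reads at a promoter-labelled region 4635 bases downstream of its outermost start, and the log2 ratio was 0.38 (-0.12 to 0.87). Irf5 had 64 and 25 at chr6:29528691-29529351, with -0.45 (-1.19 to 0.22), or -1.34 without scaling, which is past 2-fold. Downstream at chr6:29547724-29548111 over Tnpo3 it had 69 and 57, with 0.62 (0.08 to 1.14), or -0.27 without scaling. The median log2 ratio over the 33 regions was 0.23, beside -0.04 over all regions.

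**Figure D4:**
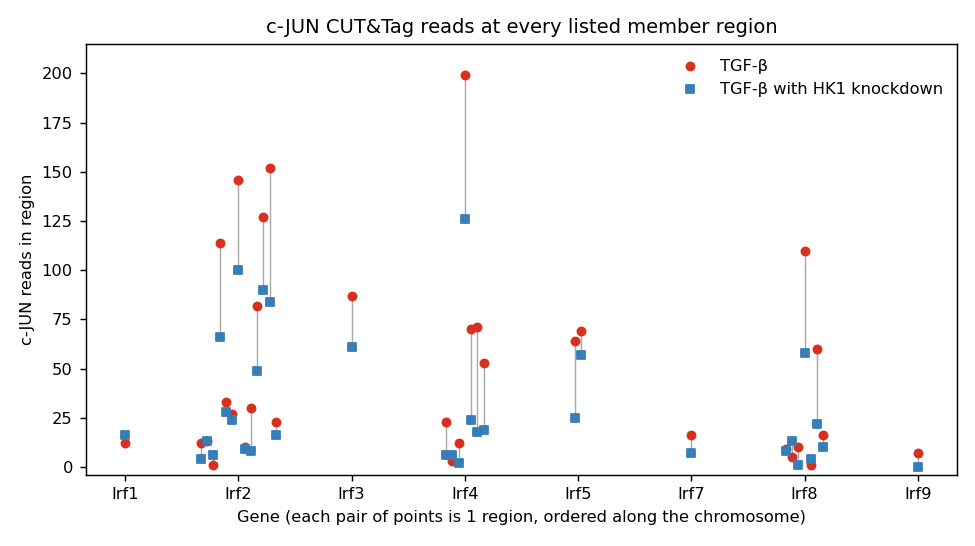
c-JUN reads at each of the 33 member regions, by gene, in TGF-β cells (circles) and in TGF-β cells with HK1 knockdown (squares), with a line joining the counts of 1 region. The deepest region is at Irf4 with 199 and 126 reads, the regions of Irf1, Irf7 and Irf9 have at most 16, and the counts are not adjusted for the smaller total of the knockdown library.

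SMAD3 had few reads at any member, as it had over all its regions. In TGF-β cells the median was 3 reads over members and 4 over all regions, and after knockdown it was 3 for both. Its 22 regions, at 7 of the 8 genes with none assigned to Irf9, summed to 100 reads in TGF-β cells and 104 after knockdown. The deepest, an Irf2 region at chr8:46869190-46869820 that overlaps the deepest c-JUN region of that gene, had 15 and 20 reads, with a log2 ratio of 0.90 (-0.13 to 1.98). At the Irf1 start, SMAD3 had 7 and 1 reads and c-JUN 12 and 16. At least 2-fold lower were 6 of 22 regions, against 31.7% of all regions, and at least 2-fold higher were 9, against 32.8%. Without scaling, 9 were lower, against 40.1% of all regions, and 6 higher, against 23.5%. With the interval excluding equality, none was lower (4.59% of all regions) and 1 was higher (7.44%), in an Irf2 intron at chr8:46843733-46843998 with 1 and 10 reads. The median log2 ratio was 0.92 over members and 0.01 over all regions. With a count of 0 taken as 3, and the 1 region with at most 3 reads otherwise left out, it was 0.91 over the remaining 21.

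NFATC2, the calcium-regulated factor, had fewer still at the members. Its median in TGF-β cells was 2 reads over members and 3 over all regions, and after knockdown 3 and 2. Its 22 regions summed to 69 reads in TGF-β cells and 68 after knockdown, and only 1 had over 10 in TGF-β cells, the Irf8 region at chr8:120821766-120822345 with 14 and 5. It overlaps the deepest c-JUN region of that gene. At the Irf1 start there were 4 and 8 reads. At least 2-fold lower was 1 of 22 regions, against 25.6% of all regions, and at least 2-fold higher were 12, against 38.4%. Without scaling, 4 were lower, against 37.6% of all regions, and 7 higher, against 26%. With the interval excluding equality, none was lower (2.06% of all regions) and 2 were higher (4.79%), both assigned to Irf3, with 0 and 4 reads each. Of these, 1 lies at the shared start of Irf3 and Bcl2l12 and the other over Scaf1. The median log2 ratio was 1.12 over members and 0.41 over all regions. With a count of 0 taken as 3, and the 3 regions with at most 3 reads otherwise left out, it was 0.70 over the remaining 19.

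After HK1 knockdown, the direction of the members' calls followed the library in which the peak had been called, for H3K9lc, c-JUN, SMAD3 and NFATC2. Of the 22 SMAD3 regions, 10 carried a peak in TGF-β cells only, 11 after knockdown only and 1 in both, and for NFATC2 these numbers were 7, 15 and 0. All 9 SMAD3 and all 12 NFATC2 member regions that were at least 2-fold higher had a peak after knockdown only, as did all 5 for c-JUN. Over all regions the share was 97.6% for SMAD3, 98.7% for NFATC2 and 85.2% for c-JUN. The lower member regions (4 for c-JUN, 6 for SMAD3, 1 for NFATC2) all had a peak in TGF-β cells only, beside 94.8%, 98.8% and 99% of all lower regions. For H3K9lc, the 2 lower member regions, Irf7 among them, had a peak in TGF-β cells only (99.4% of all lower regions). The 1 higher member region had an H3K9lc peak after knockdown only (96.7% of all higher regions). Of the 14 member regions with a c-JUN peak in both libraries, none was 2-fold apart, beside 3.17% of all such regions. For H3K9lc in TGF-β over NC, 3 of the 5 lower member regions had a peak in NC only (60%, beside 49.4% of all lower regions), and the other 2 had a peak in the TGF-β library only.

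**Figure D5:**
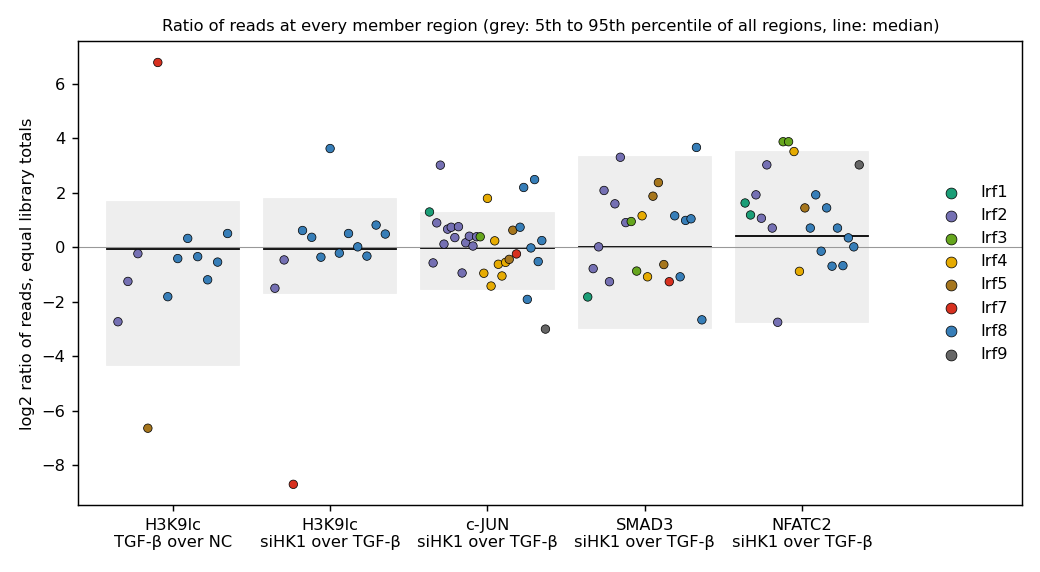
Log2 ratio of reads at every member region after equal library totals, by antibody and comparison, coloured by gene, with a grey box from the 5th to the 95th percentile of all regions of the table and a line at their median. Irf7 lies far outside the box in both H3K9lc comparisons (6.78 and -8.71) and inside it for c-JUN (-0.25) and SMAD3 (-1.27).

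Regions of different antibodies met at some of the members' places. Merged by at least 1 shared base, the 90 member regions of the TGF-β and HK1 knockdown tables made 73 places, of which 13 were shared by 2 or more antibodies (17.8%), 4 by 3 (5.48%) and none by 4. Over all regions of these tables the shares of 237139 places were 11.7%, 2.38% and 0.723%. The 4 with 3 antibodies were the Irf1 start and an Irf2 intron (chr8:46842744-46843356), both with c-JUN, SMAD3 and NFATC2, and 2 places downstream of Irf8. Of these, chr8:120821563-120822399 had the same 3 factors, and chr8:120874423-120875065 had H3K9lc (47 and 21 reads), c-JUN (16 and 10) and NFATC2 (10 and 6). The Irf7 H3K9lc region was at none of the shared places.

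The genes that act before and after the IRFs were taken from 4 lists of 47 gene symbols: sensors, adaptors and kinases, interferon receptors with JAK-STAT genes, target genes, and other IRF-named genes. For H3K9lc after knockdown, 17 of these genes had 69 regions, and none had over 139 reads in TGF-β cells. Of these regions, 9 were at least 2-fold lower (13%, beside 13.7% of all regions) and 12 at least 2-fold higher (17.4%, beside 13%). In TGF-β over NC, 16 of 59 H3K9lc regions were lower (27.1%, beside 24.9%) and 7 higher (11.9%, beside 14.7%). The c-JUN table held 39 of the genes with 167 regions, 14 lower (8.38%, beside 11.4%) and 7 higher (4.19%, beside 7.44%). For SMAD3, 27 of 101 regions were lower (26.7%, beside 31.7%) and 43 higher (42.6%, beside 32.8%). For NFATC2, 21 of 101 were lower (20.8%, beside 25.6%) and 37 higher (36.6%, beside 38.4%). Without scaling, H3K9lc after knockdown gave 34 lower and 1 higher (all regions 44% and 4.94%), and TGF-β over NC gave 5 and 53 (all regions 2.47% and 92.2%). Unscaled c-JUN counts gave 74 and 2 (all regions 45.9% and 2%), those of SMAD3 36 and 31 (all regions 40.1% and 23.5%) and those of NFATC2 34 and 22 (all regions 37.6% and 26%).

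No region of these lists came near the H3K9lc level of Irf7. Of the receptor and JAK-STAT genes, an intronic region of the kinase gene Jak1 had 24 H3K9lc reads against 5 after knockdown (-1.34, interval -3.20 to -0.03), while another intronic one had 12 against 17 (1.30, interval 0.16 to 2.51). The interferon-induced gene Ifi44 had 88 against 26 at a distal region (-0.93, interval -1.64 to -0.30). At 2 other Ifi44 regions, 64 and 47 reads in TGF-β cells stood against 0 in NC. Their log2 ratios of TGF-β over NC were 2.69 (lower bound -0.25) and 2.25 (lower bound -0.71), and both intervals include equality. The lipopolysaccharide receptor gene Tlr4 had 9 against 13 (1.32, interval 0.00 to 2.75). After equal totals, at least 2-fold lower in TGF-β over NC were distal regions of the antiviral gene Rsad2 (2 reads in NC, 0 in TGF-β) and of Irf2bp2, whose product is a corepressor of IRF2 (3 and 4, so that the raw count was not lower and the call rests on the unequal library totals).

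For the factors, the regions of these lists with the largest c-JUN ratios above the median level stayed within 2-fold after equal totals. A pair of regions near Irf2bpl had 54 c-JUN reads against 16 (-0.83, interval -1.77 to -0.04) and 59 against 18 (-0.79, interval -1.67 to -0.04). Without scaling, which shifts c-JUN ratios by -0.89, both were past 2-fold lower. The RNA sensor gene Tlr3 had 29 against 30 (0.94, interval 0.16 to 1.73) and the interferon-γ receptor gene Ifngr1 41 against 39 (0.82, interval 0.15 to 1.49), positive ratios that rest on the unequal library totals. SMAD3 was at least 2-fold lower at Irf2bp2 (12 against 0) and Tlr4 (10 against 0) and higher at a distal region of Irf2bp2 (0 against 8) and of Irf2bpl (0 against 7). NFATC2 was at least 2-fold lower at 2 distal regions of Tlr4 (10 and 9 against 0) and higher near Ifnar2, a subunit of the type I interferon receptor (0 against 8), and the DNA sensor gene Tlr9 (0 against 6).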

How the data were processed

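CUT&Tag was run on mouse primary cardiac fibroblasts, 1 library per condition and antibody. Per the file headers, each table gives raw read counts per region for each library and a 0 or 1 mark, another deposited value, for a peak called there, and in the 5 tables with an antibody at most 248 regions carry no mark. The study's methods name Bowtie2, MACS2 and GRCm39, the submitters' processing notes name BWA 0.7.12 and mm10. The coordinates of all 17995 transcripts found in GENCODE vM21 were those of GRCm38, which is used here. The counting tool is not given in the sources used here. The authors' fold change, p-value and mean columns were not used, nor were 2 per-sample columns headed GFP, of a library outside the series.

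Members, lists and rules were chosen with earlier results of these data known. Counts were scaled to equal totals over the listed regions, and log2 ratios took a pseudocount of 0.5. Exact Poisson and conditional binomial (Clopper-Pearson) intervals at 95% cover counting error only, and a count of 0 allows up to 3 reads. A region was called at 2-fold. PCR copies were not told apart from molecules. All members were described, their regions singly or by counts and ranges. Also named were per table the 2 listed-gene regions with the largest ratio in each direction above the median level, the 5 regions most like Irf7, and genes with an H3K9lc region within 100 kb of it. Motifs were searched on both strands in the central 200 bases. Alternatives were no scaling, scaling to regions with a peak in both libraries, pseudocounts of 1 and 0.1, 4-fold, deeper regions, reads summed by gene and regions within 3 kb of a start. Python 3.11.15, pandas 2.3.3 and scipy 1.17.1 were used, and the interval code was tested on simulated data.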

Additional observations from a re-analysis of the deposited data

Results flagged for a closer look

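The library titled TGF, whose antibody the labels do not name, entered no comparison. It listed 146 member regions, and 6 of them (4.11%, beside 3.86% of all 464781 regions) had more than the 3 reads that a count of 0 allows. These were 2 Irf2 regions with 4 reads each (chr8:46874841-46875029 and chr8:46896730-46896898), 2 Irf4 regions with 5 and 4 reads (chr13:30713651-30713884 and chr13:30755280-30755479) and 2 Irf8 regions with 9 and 4 reads (chr8:120827284-120827823 and chr8:120832170-120832373). A peak mark was present at 50 of the 146 member regions (34.2%), beside 28.2% of all regions. The members' share above 3 reads was thus close to that of all regions, and the Irf7 region was not among the 6.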

How the results depend on the processing

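The 4 log2 ratios at Irf7 (its H3K9lc region in both tables, c-JUN and SMAD3) kept their direction and stayed within their counting intervals under all 4 settings of scaling and pseudocount. Of all 102 member regions, 30 changed sign without scaling, 8 with regions peaked in both libraries set to 1, 5 at a pseudocount of 0.1 and 1 at a pseudocount of 1. Without scaling, 17 left their counting interval, and 11 of these changed sign. Of the 11, only the Irf5 c-JUN region over Tnpo3 (-0.27 without scaling) had an interval that excludes equality. Under the other 3 settings no member region left its interval. Counts of called member regions depended on the setting, and the cause was not tested beyond the setting's own construction. Without scaling, the numbers lower were 6 (H3K9lc knockdown), 1 (TGF-β over NC), 12 (c-JUN) and 4 (NFATC2), and those higher 11 (TGF-β over NC), 3 (c-JUN) and 7 (NFATC2). No scaling moves the median of all regions by -0.81, 4.32, -0.89, -0.49 and -0.70 (H3K9lc knockdown, TGF-β over NC, c-JUN, SMAD3, NFATC2). With regions peaked in both libraries set to 1, TGF-β over NC gave 2 lower and 3 higher, after a shift of 0.83. At 4-fold, the numbers lower were 1 (H3K9lc knockdown), 2 (TGF-β over NC), 1 (c-JUN) and 1 (SMAD3), and those higher 3 (c-JUN), 4 (SMAD3) and 5 (NFATC2). With deeper regions only, they were 1, 3, 1 and 0 lower (H3K9lc knockdown, TGF-β over NC, c-JUN, NFATC2) and 0, 0 and 5 higher (H3K9lc knockdown, c-JUN, NFATC2). Summed by gene, they were 2, 1, 2 and 0 lower (TGF-β over NC, c-JUN, SMAD3, NFATC2) and 0, 1, 1 and 4 higher (H3K9lc knockdown, c-JUN, SMAD3, NFATC2). Within 3 kb of a start, they were 1, 1, 2, 2 and 0 lower (all 5 comparisons in that order) and 0, 2, 3 and 6 higher (H3K9lc knockdown, c-JUN, SMAD3, NFATC2). Without Irf7, a setting chosen after seeing the data, 1 was lower in H3K9lc after knockdown and 0 higher in TGF-β over NC.

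No paired analysis was possible because there was 1 library for every antibody and condition, so the replicate numbers in the labels pair nothing and the spread between cultures is unknown. The NC library, with 115572 reads, limits every ratio over NC, and SMAD3 and NFATC2 counts of at most 20 reads per member region limit those.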
